A study of Mus musculus with 6 samples.

Results

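The members are p53 and 9 of its known target genes, 10 genes in all: Trp53, Mdm2, Plk2, Ccng1, Bax, Cdkn1a, Zmat3, Sesn1, Trp53inp1 and Ei24. They were found by symbol in the platform annotation of an Illumina bead array, where 8 of the 10 stood among 19057 named genes, with 18 of the 45281 probes. No probe carried the symbol Trp53 or Bax there, so the levels of p53 mRNA and of Bax were not analysed here. Of the 18 probes, 16 passed the detection filter and all 8 genes had at least 1 that passed. Gene expression was compared in the ventromedial hypothalamus (VMH) of mice aged 16 weeks on a mixed background. The SIRT1 deletion group held 3 RNA pools from Sf1-Cre; Sirt1loxP/loxP mice. The control group held 3 pools from Sirt1loxP/loxP mice, so the floxed allele is shared and the groups differ by Cre. Sf1-Cre is active in cells that express SF1 (encoded by Nr5a1), which are part of the dissected tissue. In such bulk RNA, fewer cells of a type and less RNA per cell cannot be told apart. Nothing in the labels says how many mice, or of which sex, a pool holds, so p-values measure only the spread between pools, which may be technical.

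p53 is a transcription factor that is activated by DNA damage and other stress and induces genes for cell cycle arrest, DNA repair, cell death and metabolic control. SIRT1 is a NAD-dependent deacetylase and p53 is among its substrates: removal of acetyl groups from lysines near the end of p53 lowers its activity. The output of p53 is limited by Mdm2, which ubiquitinates p53 and is itself a p53 target. The question was whether p53 target transcripts differ in VMH tissue when Sirt1 is deleted in SF1 neurons.

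The median raw signal was between 140.4 and 142.1 in SIRT1 deletion pools and between 145.5 and 149.4 in control pools. Between 20053 and 20611 probes were detected per array, and any pair of arrays correlated at 0.991 to 0.995 over the features, as a description. The first principal component held 34.2% of the variance, with SIRT1 deletion 2 and 3 at one end (15.97 and 15.06). SIRT1 deletion 1 (-3.44) lay beside control 1 (-4.44), with control 3 at -8.26 and control 2 at -14.89. The groups thus did not overlap on this component, though SIRT1 deletion 1 was nearer to the controls than to the other deletion pools. The single Sirt1 probe had a log2 intensity of 7.65 ± 0.13 in SIRT1 deletion pools and 7.69 ± 0.11 in control pools (SD, n = 3 each). Whether that probe lies within the floxed segment is not stated, so it checks neither deletion nor labels. All 9 listed markers of VMH neurons were measured, among them Fezf1 and Slc17a6, while Nr5a1 was dim. In 17 measured genes of exocrine pancreas, a tissue that is not part of the hypothalamus, every mean was lower in SIRT1 deletion pools, and 4 (Zg16, Try4, Try5 and Sycn) were not above background in any of these pools. The summed linear intensity of the 17 was between 2968 and 3238 in SIRT1 deletion pools and between 4516 and 5236 in control pools. Their part in the results on p53 targets was not tested.

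Promoter sequences are shown for the members with a recognisable p53 site close to a transcription start. Windows from 250 bases before to 50 bases after each annotated start (RefSeq, GRCm38.p6) were searched for the p53 response element, a pair of adjacent 10-base half-sites, allowing 1 mismatch but requiring the central C and G of each half-site. Windows existed for 8 of the 10 members, 10 windows in all. The element was found in 2 members, Cdkn1a and Ccng1, and in 22 of 32851 windows of all genes (0.067%). The consensus reads the same on both strands. No match in the other windows says only that the letters are not in that stretch, since p53 sites can lie in introns or further upstream, as in Mdm2. Cdkn1a had 2 windows, and only the upstream one held the element. The first sequence is that window, at chr17:29090729-29091028 (+ strand), with the element in capitals. The element begins at position -51 from the upstream transcription start. Its core ACATGT occurs 2 times within the element and in 5.28% of all windows. The second is the Ccng1 window at chr11:40755237-40755536 (- strand), with the element in capitals from position -195.
Cdkn1a: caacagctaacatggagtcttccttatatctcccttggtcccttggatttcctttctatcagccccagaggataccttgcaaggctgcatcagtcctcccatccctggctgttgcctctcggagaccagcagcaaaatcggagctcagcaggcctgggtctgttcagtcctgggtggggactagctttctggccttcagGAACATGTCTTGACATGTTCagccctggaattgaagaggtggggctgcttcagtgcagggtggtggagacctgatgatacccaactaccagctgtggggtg
Ccng1: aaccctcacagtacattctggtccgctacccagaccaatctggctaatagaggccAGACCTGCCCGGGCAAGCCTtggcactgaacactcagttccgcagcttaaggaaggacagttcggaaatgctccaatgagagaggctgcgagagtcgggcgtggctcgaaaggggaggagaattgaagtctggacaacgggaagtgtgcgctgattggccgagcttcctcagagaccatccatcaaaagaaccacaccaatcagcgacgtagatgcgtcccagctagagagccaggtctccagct

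The Plk2 window is shown because Plk2 had the largest difference among the members. It held no p53 response element at this stringency. It did hold the palindrome TGACGTCA, the cAMP response element that CREB family factors bind, beginning at position -62 and in capitals below. This motif was in 1.79% of all windows and in no other member window. The window lies at chr13:110394794-110395093 (+ strand).
Plk2: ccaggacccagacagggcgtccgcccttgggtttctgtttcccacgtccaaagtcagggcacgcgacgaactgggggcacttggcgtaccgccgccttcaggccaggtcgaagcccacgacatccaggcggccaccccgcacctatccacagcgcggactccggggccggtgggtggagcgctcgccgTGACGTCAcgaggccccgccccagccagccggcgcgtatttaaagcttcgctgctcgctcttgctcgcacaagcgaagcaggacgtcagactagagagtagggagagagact

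Values are given next as normalised log2 intensities from the brightest detected probe of each gene, and fold changes are SIRT1 deletion over control. No member passed a limma adjusted p under 0.05 over all 14221 features, of which 0.105% passed. Among the 8 measured members, 4 had lower and 4 had higher means in SIRT1 deletion pools, with a median log2 fold change of -0.075 against -0.0046 over all features. At an unadjusted p under 0.05 there were 2 members, Plk2 and Mdm2, both lower, where 8.82% of all features reached that level in either direction with 4.21% lower and 4.61% higher in SIRT1 deletion pools. Plk2 and Mdm2 were also the only 2 of the 8 whose groups did not overlap, and 7.21% of all features had all SIRT1 deletion pools below all control pools. No member had all SIRT1 deletion pools above all control pools, an order seen in 7.04% of all features. With 8 members these shares rest on 2 genes that share the same arrays.

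**Figure D1:**
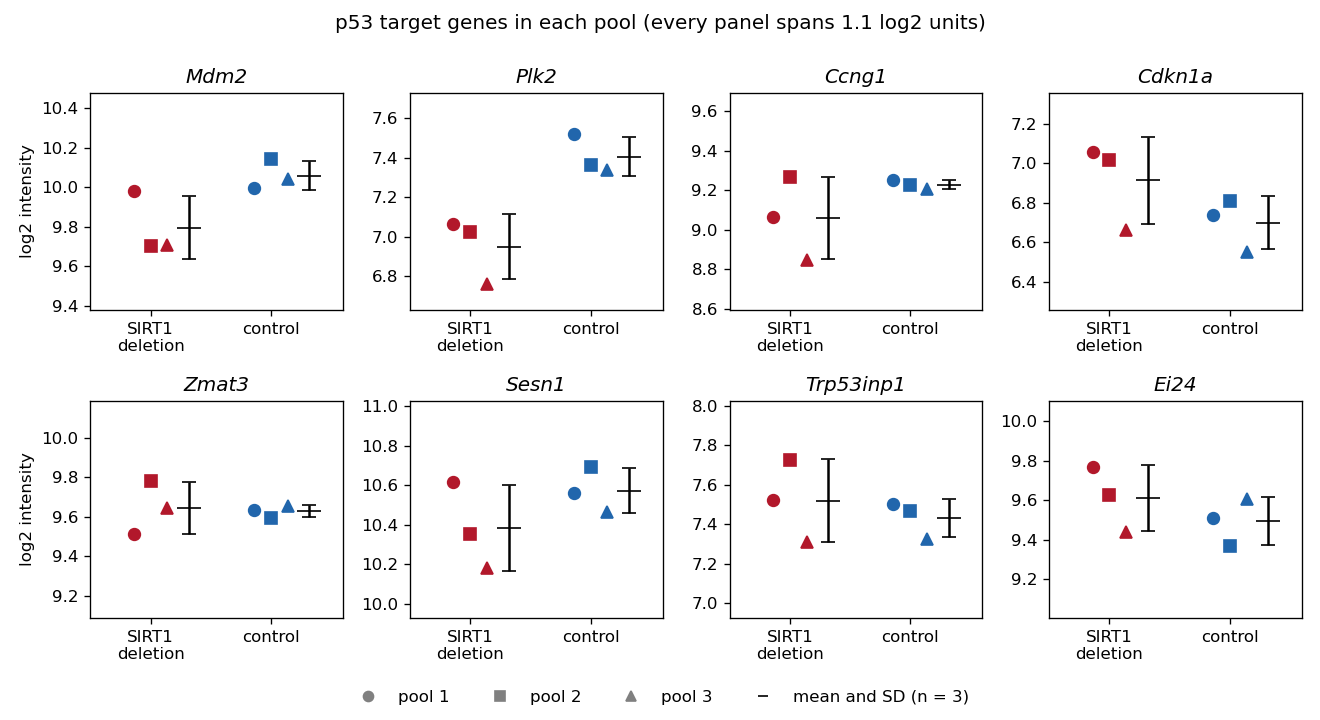
Log2 intensity (y axis) of the 8 measured members in each pool, SIRT1 deletion left and control right, with pool number as marker shape and mean and SD (n = 3) as bars. All panels span 1.1 log2 units; only Mdm2 and Plk2 have groups that do not overlap, with SIRT1 deletion lower.

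Mdm2, the ubiquitin ligase that keeps p53 low, had lower values in SIRT1 deletion pools. Its brightest probe read 9.98, 9.70 and 9.71 in SIRT1 deletion 1 to 3 and 9.996, 10.14 and 10.04 in control 1 to 3. All 3 deletion pools lay below all control pools, but SIRT1 deletion 1 was only just below control 1. The log2 fold change was -0.26 (95% interval -0.50 to -0.027), a difference of -16.7%, with a limma unadjusted p of 0.0329 and an adjusted p of 0.542. A second detected Mdm2 probe gave -0.12 with overlapping groups (limma 95% interval -0.36 to 0.11). The third Mdm2 probe was not above background on any array.

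Ccng1 encodes cyclin G1, which recruits a phosphatase that acts on Mdm2, and its promoter element is printed above. The brightest probe read 9.06, 9.27 and 8.85 in SIRT1 deletion pools, against 9.25, 9.22 and 9.21 in control pools. The control pools were nearly identical, while the deletion pools lay on both sides of them. Its log2 fold change, -0.17, had a 95% interval of -0.43 to 0.090 and a limma adjusted p of 0.671. The 2 other detected Ccng1 probes gave -0.056 and 0.29. For the last of these, all SIRT1 deletion pools (6.97, 7.34 and 6.90) were above all control pools (6.90, 6.71 and 6.75), though SIRT1 deletion 3 and control 1 were almost level. Its limma unadjusted p in the fit of every probe was 0.0547 and its adjusted p 0.593. Raw signals of this probe overlapped (233.7, 274.2 and 231.4 in SIRT1 deletion pools, 247.7, 231.8 and 235.3 in control pools). Without background correction its log2 fold change was 0.15.

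Cdkn1a encodes p21, the inhibitor of cyclin-dependent kinases through which p53 halts the cell cycle. The brightest Cdkn1a probe read 7.06, 7.02 and 6.66 in SIRT1 deletion pools and 6.74, 6.81 and 6.55 in control pools. SIRT1 deletion 1 and 2 were above every control pool, and SIRT1 deletion 3 lay within the control range. Its log2 fold change of 0.21 was not called by limma (adjusted p = 0.638), and the 95% interval ran from -5.18% to 41.7%. Before normalisation its mean raw signals were nearly equal, 232.2 in SIRT1 deletion and 231.4 in control pools. Without background correction the log2 fold change was 0.10. A second, dimmer probe of Cdkn1a had the opposite sign, -0.17 (95% interval -0.42 to 0.087). The third probe of Cdkn1a was not above background on any array. The direction of Cdkn1a thus differed between its 2 detected probes.

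Plk2 encodes polo-like kinase 2, which was first known as a serum-inducible kinase, is induced by p53 and, in neurons, by synaptic activity. It has 1 probe on the array, whose raw signal was 241.0, 242.5 and 221.6 in SIRT1 deletion pools and 314.8, 295.1 and 292.7 in control pools. After normalisation these became 7.07, 7.03 and 6.76 in SIRT1 deletion pools and 7.52, 7.36 and 7.34 in control pools on the log2 scale. Every deletion pool was lower than every control pool, SIRT1 deletion 3 the most. The log2 fold change was -0.46 (95% interval -0.70 to -0.21), a difference of -27.0% (interval -38.5% to -13.5%), with a limma unadjusted p of 0.00255 and an adjusted p of 0.343. Plk2 ranked 103 of 14221 features by p. It lay below the 5th percentile of fold changes of all features, which was -0.26.

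Neuronal immediate early genes, transcribed within minutes of firing, are set beside Plk2 because they too respond to activity. Of 16 listed, 13 were measured, 10 with lower means in SIRT1 deletion pools, against 7323 of all 14221 features. An unadjusted p under 0.05 was reached by 3 (Fos, Npas4 and Arc), all lower, against 4.21% of all features lower at that level. The groups did not overlap in 2 (15.4%), against 14.3% of all features. The median log2 fold change of the 13 was -0.14. None passed the limma adjusted p (lowest 0.515). Fos read 7.78, 8.17 and 7.31 in SIRT1 deletion pools and 8.41, 8.38 and 8.19 in control pools. In Npas4, Arc and Junb, SIRT1 deletion 1 and 3 were below every control pool, whereas SIRT1 deletion 2 fell within the control range. In Fos, SIRT1 deletion 2 was only just below control 3. In Plk2, SIRT1 deletion 2 was low as well, at 7.03 against 7.34 in the lowest control pool. The part of neuronal activity in the Plk2 difference was not tested.

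**Figure D2:**
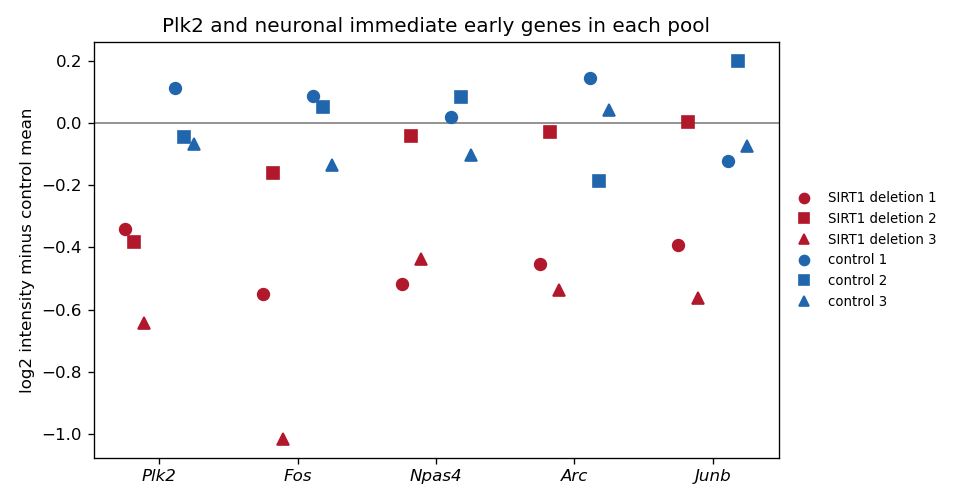
Log2 intensity minus the control mean (y axis) for Plk2 and the 4 immediate early genes of lowest p, per pool, SIRT1 deletion left and control right. SIRT1 deletion 2 lies near the controls in Npas4, Arc and Junb but below all of them in Plk2 and Fos.

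Zmat3 encodes an RNA-binding zinc finger protein (Wig1) and is a direct p53 target. Zmat3 read 9.51, 9.78 and 9.65 in SIRT1 deletion pools and 9.63, 9.60 and 9.65 in control pools. The deletion pools straddled the controls, and the log2 fold change was 0.018 (limma adjusted p = 0.970). Expressed as a percentage, its 95% interval was -12.8% to 17.4%.

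Trp53inp1 and Ei24 stand for the cell death arm. Trp53inp1, a nuclear stress protein that promotes p53 phosphorylation and autophagy, read 7.52, 7.73 and 7.31 in SIRT1 deletion pools and 7.503, 7.47 and 7.32 in control pools. Ei24, an endoplasmic reticulum protein needed for autophagy, read 9.77, 9.63 and 9.44 in SIRT1 deletion pools and 9.51, 9.37 and 9.61 in control pools. The groups overlapped in both genes. The log2 fold changes were 0.089 (95% interval -0.18 to 0.36) for Trp53inp1 and 0.12 (-0.14 to 0.37) for Ei24, with limma adjusted p of 0.846 and 0.778. The second detected probe of each gene gave a similar value, 0.12 for Trp53inp1 and 0.11 for Ei24. That of Trp53inp1 was dim (means of 5.22 in SIRT1 deletion and 5.10 in control pools) and not above background in control 1. Its log2 fold change ran from 0.0075 to 0.25 with a pool left out, and its order of pools differed from that of the brightest probe.

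Sesn1 encodes sestrin 1, a leucine-sensing restraint on mTORC1 that also counters oxidative stress. The brightest Sesn1 probe read 10.62, 10.35 and 10.18 in SIRT1 deletion pools, against 10.56, 10.69 and 10.47 in control pools. SIRT1 deletion 2 and 3 were below every control, and SIRT1 deletion 1 lay inside their range. This gave -0.19 on the log2 scale (95% interval -0.47 to 0.094), with a limma adjusted p of 0.662. Of the 2 other detected Sesn1 probes, 1 was also lower, -0.22 (9.51, 9.22 and 9.34 in SIRT1 deletion pools, 9.52, 9.63 and 9.57 in control pools). The other, dimmer, had 0.28 (95% interval 0.051 to 0.51, limma unadjusted p = 0.0222, adjusted p = 0.542), with 6.41, 6.47 and 6.52 in SIRT1 deletion pools and 6.16, 6.05 and 6.34 in control pools. Raw signals of this dimmer probe overlapped (195.2, 202.4 and 205.1 in SIRT1 deletion pools, 198.3, 191.6 and 205.4 in control pools). Without background correction its log2 fold change was 0.11. The Sesn1 probes thus gave both signs after normalisation.

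Agreement between probes of one gene divided the members. With every probe fitted on its own, 0 of 16 detected member probes passed the limma adjusted p (0.049% of all 20402 probes did). At an unadjusted p under 0.05 there were 3 (8.47% of all probes), and 5 had groups that did not overlap (14% of all probes). In Mdm2, Trp53inp1 and Ei24 all detected probes had the same sign, in Ccng1, Cdkn1a and Sesn1 they did not, and Plk2 and Zmat3 have 1 probe each. For 8 pairs of a brightest and another detected probe, the difference of their 2 fold changes was compared over pools. The widest gaps were -0.47 in Sesn1, -0.45 in Ccng1 and 0.38 in Cdkn1a. For both Ccng1 pairs the per-pool difference between the probes did not overlap between the groups (exact two-sided permutation p = 0.1, the smallest that 3 against 3 pools allow; 0.32 after Benjamini-Hochberg adjustment over 8 pairs). The Cdkn1a pair and the wider Sesn1 pair overlapped (exact permutation p = 0.2 each), as did the other Sesn1 pair (exact permutation p = 0.7). The transcripts read by each probe were not analysed here.

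**Figure D3:**
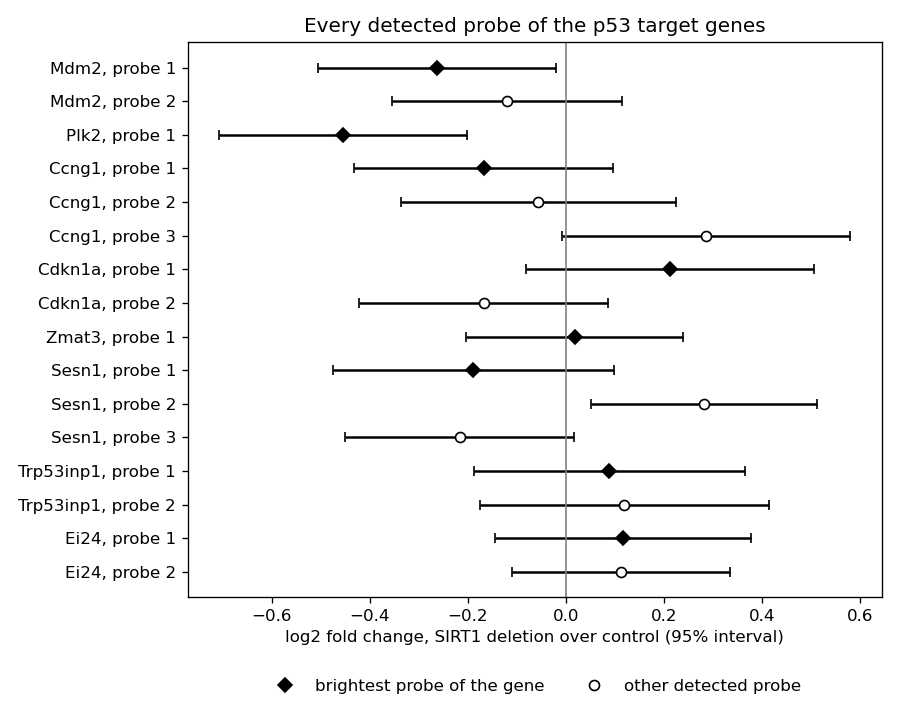
Log2 fold change, SIRT1 deletion over control (x axis), with 95% interval from limma for each of the 16 detected member probes; filled diamonds mark the brightest probe of a gene. Point estimates of Ccng1, Cdkn1a and Sesn1 lie on both sides of 0, while those of Mdm2, Trp53inp1 and Ei24 keep to one side. Among probes of the latter genes, only the brightest Mdm2 probe has an interval that excludes 0.

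In the brightest probes of the members, the deletion pools differed more from each other than the control pools did. In 8 of 8 members the SD was larger in SIRT1 deletion pools than in control pools, against 55.2% of all features and 34 of 57 p53 pathway genes (59.6%). The median SD of the members was 0.19 in SIRT1 deletion and 0.097 in control pools, and over all features it was 0.12 and 0.11. Second detected probes reversed the order for Mdm2 (SD 0.070 in SIRT1 deletion, 0.14 in control pools), Trp53inp1 (0.043 and 0.25) and Ei24 (0.069 and 0.12). The dimmest Sesn1 probe also reversed it (0.052 and 0.14). Other detected probes of Ccng1 and Cdkn1a and the remaining Sesn1 probe kept it. All members were read on the same 6 arrays. In the brightest probes, SIRT1 deletion 3 was the lowest of the 3 deletion pools in 6 of 8 members and in 32.3% of all features. It was the lowest of all 6 pools in 4 members (Plk2, Ccng1, Sesn1 and Trp53inp1) and in 19.4% of features. Without it, Plk2 had -0.36, Mdm2 -0.22, Ccng1 -0.063 and Sesn1 -0.088, while Cdkn1a had 0.34, Trp53inp1 0.19 and Ei24 0.20. For Cdkn1a the limma unadjusted p was then 0.0171 and the adjusted p 0.727, and for Mdm2 the unadjusted p was 0.102. Leaving out SIRT1 deletion 3 raised 7 of the 8 log2 fold changes, Zmat3 being the exception with 0.017. That pool was singled out for its low values, so the rise follows by arithmetic. Neither the rise nor the Cdkn1a p is further evidence. In the dimmest detected probes of Cdkn1a (5.64), Sesn1 (6.52) and Trp53inp1 (5.26), SIRT1 deletion 3 was instead the highest deletion pool. It was the lowest deletion pool in the other detected probes of Mdm2, Ccng1 and Ei24. In the remaining Sesn1 probe SIRT1 deletion 2 was the lowest (9.22, against 9.34 in SIRT1 deletion 3).

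**Figure D4:**
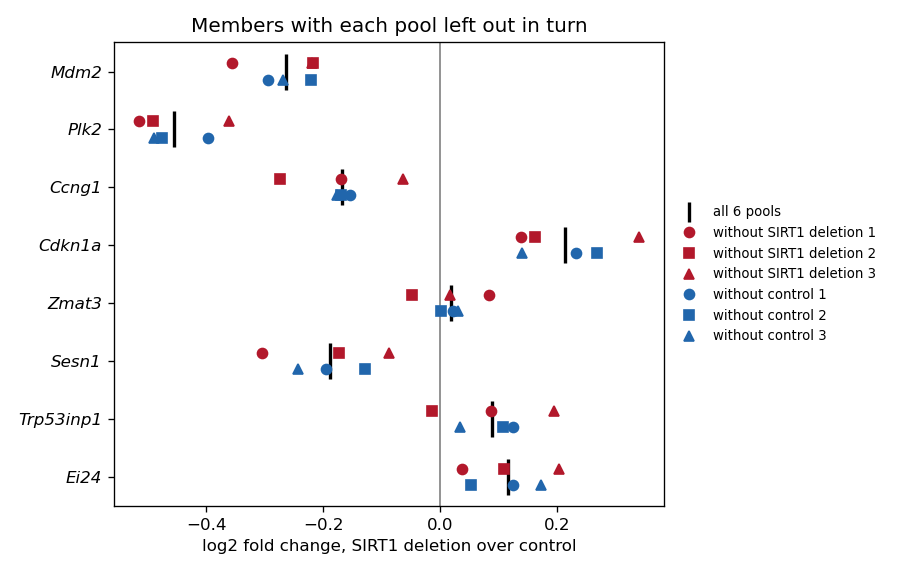
Log2 fold change, SIRT1 deletion over control (x axis), of each member with all 6 pools (bar) and with each pool left out in turn (red markers, SIRT1 deletion pools; blue markers, control pools). Plk2, Mdm2, Ccng1 and Sesn1 stay below 0 and Cdkn1a and Ei24 above 0 whichever pool is left out, and Zmat3 and Trp53inp1 cross 0 without SIRT1 deletion 2.

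The wider pathway was read from 7 lists with 78 genes, of which 71 had a named probe and 57 were measured. The 57 include the 8 members and Sirt1 itself, which is counted among the lower genes. In these 57 genes 25 had higher and 32 lower means in SIRT1 deletion pools, with a median log2 fold change of -0.033. None passed the limma adjusted p, and 4 (7.02%) reached an unadjusted p under 0.05, against 8.82% of all features. The groups did not overlap in 10 (17.5%), against the 14.3% of all features. Both shares were close to those of the whole array. The 4 genes were Plk2, Mdm2, Plk3 and Xpc.

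**Figure D5:**
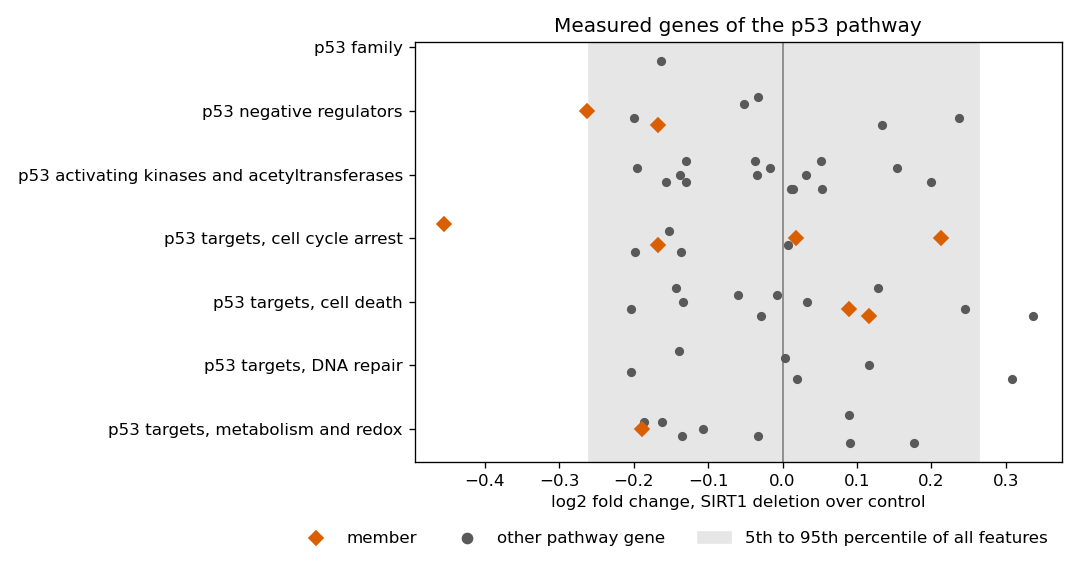
Log2 fold change, SIRT1 deletion over control (x axis), of the measured genes of each p53 list (rows); orange diamonds are members and the grey band runs from the 5th to the 95th percentile of all features, -0.26 to 0.26. Most pathway genes lie inside the band, with Plk2 furthest to the left.

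Among genes that limit p53, 7 of 9 were measured, 5 lower and 2 higher, with 1 (Mdm2) at an unadjusted p under 0.05. Usp7, which removes ubiquitin from p53 and Mdm2, had -0.20 (limma adjusted p = 0.586), and its 2 other detected probes gave 0.063 and -0.054. Cop1, another ubiquitin ligase for p53, had 0.24 (adjusted p = 0.608), with all SIRT1 deletion pools above all control pools, but its other probes gave -0.18 and -0.11. The signs of both genes therefore depended on the probe.

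Kinases, acetyltransferases and partners of p53 gave 15 measured genes of 18, 7 higher and 8 lower, around a median of -0.017, and 0 had an unadjusted p under 0.05. The 15 include the deacetylase Sirt1 itself (-0.034), the gene that was deleted. Trp53bp1, a damage response scaffold, had 0.15 and non-overlapping groups (limma adjusted p = 0.608). Its 2 other detected probes overlapped and gave 0.23 and -0.081. Crebbp, an acetyltransferase of p53, had -0.20 but was detected on 1 deletion array and 2 control arrays. Mapk14 (-0.13) and Chek2 (-0.14), both stress kinases that act on p53, had limma adjusted p of 0.696 and 0.703. In the p53 family, Trp63 was dim with -0.16 (adjusted p = 0.753), and Trp73 did not pass the detection filter.

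Of 12 cell cycle arrest targets 8 were measured, 3 higher and 5 lower, and their median was -0.14. Plk2 and Plk3 had an unadjusted p under 0.05. Plk3, a stress-responsive relative of Plk2, read 7.72, 7.79 and 7.65 in SIRT1 deletion pools and 7.87, 7.89 and 7.99 in control pools. All its deletion pools were below all control pools, by -0.20 on the log2 scale (95% interval -0.39 to -0.0031, limma adjusted p = 0.561).

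Of 17 cell death targets 12 were measured, 6 higher and 6 lower, around a median of 0.013, and 0 had an unadjusted p under 0.05. Apaf1, the scaffold of the apoptosome, had -0.20 with all deletion pools below all control pools (limma adjusted p = 0.565), against 0.15 and -0.0016 from its 2 other detected probes. The death receptor Fas had 0.24 with overlapping groups, the lysosomal protein Dram1 0.13 without overlap and the pro-apoptotic Siva1 -0.14 (limma adjusted p from 0.642 to 0.684). The second detected Fas probe gave 0.50 (95% interval 0.097 to 0.897), also with overlap (limma unadjusted p = 0.0206, adjusted p = 0.539).

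Of 7 DNA repair targets 6 were measured, 4 higher and 2 lower, with a median of 0.011. Xpc, which recognises bulky DNA lesions, read 7.98, 7.99 and 8.10 in SIRT1 deletion pools and 7.78, 7.80 and 7.57 in control pools. Every deletion pool was above every control pool, and the log2 fold change was 0.31 (95% interval 0.090 to 0.53, limma unadjusted p = 0.0111, adjusted p = 0.487). Ercc5, a repair nuclease, had -0.20, and Rrm2b, the p53-induced subunit of ribonucleotide reductase, had -0.14, each with all deletion pools below all control pools (limma adjusted p of 0.565 and 0.642). The other detected Ercc5 probe gave -0.018. Fancc, of the Fanconi anaemia pathway, had 0.12 with overlapping groups.

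Of 13 metabolic and redox targets 9 were measured, 3 higher and 6 lower, around a median of -0.11, and 0 had an unadjusted p under 0.05. Gpx1, a glutathione peroxidase, had -0.19, and Prkab1, a subunit of AMP-activated kinase, had -0.14. Aldh4a1, which oxidises a proline breakdown product, had 0.18. The groups of these 3 genes overlapped (limma adjusted p from 0.590 to 0.685).

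Genes were also chosen by promoter letters alone. Of the 22 genes whose window held the p53 response element, 5 were measured: Cdkn1a, Ccng1, Rps27l, Mthfd1 and Sptbn4. Their median log2 fold change was 0.066, with 3 higher, 2 lower and 0 at an unadjusted p under 0.05. Rps27l, a ribosomal protein relative known as a p53 target, had 11.002 ± 0.015 in SIRT1 deletion pools and 10.94 ± 0.024 in control pools (SD, n = 3 each). Its groups did not overlap, and the log2 fold change was 0.066 (95% interval -0.11 to 0.24, limma adjusted p = 0.826). Mthfd1, an enzyme of folate metabolism, had -0.086, and Sptbn4, a spectrin of the axon initial segment, had 0.11.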

How the data were processed

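Each of the 6 pools was hybridised to 1 Illumina array as biotinylated cRNA, per the labels' protocols. The deposited table gives, per the file headers, a mean bead intensity and a detection p-value for each probe; the intensity was neither background-subtracted nor scaled. The authors' second table holds quantile-normalised intensity values on a linear scale, judged from the median of 134.4 that all 6 columns share, and served as an alternative. No scanner software or genome build is named in the labels or headers. Symbols came from the platform annotation supplied with the data (34885 probes with 1 symbol, 18 with several, 10378 with none).

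Background was corrected by normexp (limma 3.58.1 in R 4.3.3) using the detection p-values, with an offset of 16, before quantile normalisation and log2 transformation. The offset compresses changes of dim probes. Probes detected at p under 0.05 on at least 3 arrays were kept (20402). The brightest detected probe stood for a gene, and unnamed probes stayed, giving 14221 features (11049 named genes, 3172 unnamed probes). The group difference was fitted by lmFit and eBayes, with Benjamini-Hochberg adjustment over all features. Probes of one gene were read from a second fit of all 20402 probes. The fit was tested on simulated data. The number of arrays limits the precision.

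The members, lists and tests were chosen with earlier results of these data known. Named genes were all members, Sirt1, Nr5a1 and up to 4 genes of lowest p per list. Plk2's immediate early genes and the genes with a p53 element were named by these lists or by sequence. Genes most like Trp53 could not be named, as Trp53 was not analysed here. Lists of meninges, astrocytes, oligodendrocytes, microglia and endothelium were also read. Alternatives covered background, offset, normalisation, source table, filter, probe choice, variance prior, replicate block and each pool left out. No pair of arrays had more than 0.00221% identical signals. Python 3.11.15 with matplotlib 3.10.9 drew the figures and searched the promoters.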

Additional observations from a re-analysis of the deposited data

How the results depend on the processing

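With 3 pools a group, differences the size of most members' cannot be told from the spread between pools. No member and no p53 pathway gene passed the limma adjusted p under any of the 16 alternatives. Plk2 kept its sign and an unadjusted p under 0.05 in all 16 (log2 fold change -0.52 to -0.25, limma adjusted p 0.169 to 0.771), smallest without background correction. Mdm2 kept its sign (-0.36 to -0.19) and an unadjusted p under 0.05 in 10 of 16. Of the other pathway genes at that level, Xpc, which was higher (0.20 to 0.35), kept it in 16 of 16. Plk3, which was lower (-0.23 to -0.13), kept it in 8 of 16. Cdkn1a ranged from 0.023, with the mean of its probes, to 0.34. The members' median, -0.075, became 0.019 with the mean of the probes.

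The features called, 15 in the main processing, numbered 9 without a detection filter, 4 when a probe had to be detected at p under 0.01 on 6 of 6 arrays, 29 with an intensity trend and robust prior, and 10 to 14 with a pool left out. Features at an unadjusted p under 0.05, 1254 in the main processing, numbered 2264 without a filter and 745 (without control 2) to 2003 (without SIRT1 deletion 1) with a pool left out. The 2 members at that level became 1 with the mean of the detected probes, 1 under the replicate block, and 1 (without control 2 or control 3) to 3 with a pool left out. The 4 pathway genes at that level became 9 without background correction, 8 with an offset of 50, 9 with the authors' table, 9 without a filter, 7 with the trend and robust prior and 2 under the replicate block. With a pool left out they ranged from 2 (without control 2) to 10 (without SIRT1 deletion 1). Deviations of same-numbered pools from their group means correlated between -0.052 and -0.023, so the numbers were not taken to pair pools. The replicate block changed no adjusted call of a member. Some signs turned. With the mean of the probes, Ccng1 went from -0.17 to 0.021 and Cop1 from 0.24 to -0.020. With 1 pool left out, Zmat3 ranged from -0.048 (without SIRT1 deletion 2) to 0.083 and Trp53inp1 from -0.015 (without SIRT1 deletion 2) to 0.19. Fancc, 0.12 in the main processing, ranged from -0.081 (without control 2) to 0.26. Sirt1 ranged from -0.092 to 0.039 (without SIRT1 deletion 3), with 0.027 without control 1. The causes were not tested.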

Other observations

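Other cells of the tissue give the setting in which the p53 targets were read. All 6 listed astrocyte genes were measured, 5 with higher means in SIRT1 deletion pools (median log2 fold change 0.047), and Slc1a3, a glutamate transporter, had 0.21. Of 5 measured oligodendrocyte genes 4 were higher, and Mog, a myelin protein, had 0.37 (limma adjusted p = 0.531). Microglia genes were 3 higher and 4 lower, with Aif1 at 0.34 and the purinergic receptor P2ry12 at -0.24. Of 5 measured endothelial genes 3 were lower, with Tek, the angiopoietin receptor, at -0.23. Of 7 measured meningeal genes 6 were lower (median -0.55), and Dcn, a matrix proteoglycan, had -0.37. The summed linear intensity of the meningeal genes ran from 617.8 to 1211 in SIRT1 deletion pools and from 761.7 to 1795 in control pools, so that the groups overlapped. Second detected probes gave 0.45 for Mog, 0.18 for Aif1 and -0.41 for Dcn. None of these genes passed the limma adjusted p. Of the 9 VMH markers 7 were lower and 2 higher, with a median log2 fold change of -0.063. The groups did not overlap in 2 (22.2%, against 14.3% of all features), Sox14 with -0.36 and Nr5a1 with 0.45 (limma adjusted p = 0.427 each). Nr5a1 was dim (means of 5.49 in SIRT1 deletion and 5.05 in control pools) and had 0.11 without background correction.

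Genes that share the TGACGTCA palindrome with the Plk2 window were read as a group. Of 549 such genes 320 were measured, 148 higher and 172 lower, with a median log2 fold change of -0.013. An unadjusted p under 0.05 was reached by 23 (7.19%), against 8.82% of all features. The groups did not overlap in 56 (17.5%), against 14.3% of all features.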
